A study of Mus musculus with 4 samples.

Results

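The genes described here are those for transport inside the primary cilium, for the BBSome coat complex and for the gate at the cilium's base. They were taken by symbol from the RNA-seq count table of E13.5 mouse retinas: every symbol of the form *Ift*, *Bbs* or *Tctn* followed by a number, and a fixed set of 19 further symbols that includes *Ttc8*, *Arl6*, *Arl13b* and *Dync2h1*. The rule found 44 of the 24062 genes in the table, with no use of their values. The table holds 4 libraries, 2 from wildtype retinas and 2 from *Nrf1* f/f;*Six3-Cre* retinas, which carry the label Nrf1-CKO. In the mutant, the Cre recombinase of the *Six3-Cre* transgene removes the floxed exon 4 of *Nrf1* in retinal progenitors, starting in the central retina. Cells that do not descend from these progenitors keep the gene. The study reports loss of Nrf1 protein for the central retina, and whether peripheral progenitors kept the gene cannot be read from these counts. All embryos were E13.5 and of a mixed C57BL/6 and 129 background, and RNA was pooled from 18 retinas of littermates. The study's methods say that the sequencing was done in duplicate but not whether each library was a pool of its own, so p-values measure the spread between these libraries, which may be technical. Nrf1 is nuclear respiratory factor 1, a DNA-binding activator of genes for mitochondria and cell growth. The comparison asks how RNA of the ciliary machinery stood in mutant retinas, in which RNA of several Hedgehog pathway genes was lower.

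The primary cilium is a single antenna of microtubules that most cells, retinal progenitors among them, build between divisions. Cargo moves out along it on intraflagellar transport complex B (IFT-B), drawn by a kinesin-2 motor, and back on complex A (IFT-A), drawn by a dynein-2 motor. The BBSome, a coat named after Bardet-Biedl syndrome, carries membrane receptors out of the cilium, and the transition zone at its base acts as a gate. Vertebrate Hedgehog signalling runs through this organelle: the receptor Ptch1 leaves it, Smo enters it, and the Gli transcription factors are processed there. In the embryonic retina, Shh made by retinal ganglion cells (RGCs) keeps progenitors dividing.

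Reads counted on genes came to between 74577660 and 85933945 per library, and those on the 44 genes to between 131491 and 162440. *Nrf1* itself stood at 103.4 and 105.0 CPM (counts per 1000000 reads on genes, with library sizes scaled by edgeR's TMM factors) in wildtype and at 103.4 and 100.1 CPM in mutant libraries, a log2 fold change of -0.03 with a standard error of 0.07 (adjusted p = 0.794, edgeR). A count over the whole gene cannot show the loss of 1 exon, so it does not check the genotype labels. Many markers of neighbouring tissues were called higher in the mutant libraries: 10 of 11 for lens, 7 of 8 for pigment epithelium, 11 of 11 for macrophages and microglia, 8 of 12 for periocular mesenchyme, 7 of 9 for endothelium and 3 of 7 for erythroid cells. With limma on the authors' deposited log2 values, 6 pigment epithelium, 5 periocular mesenchyme and 0 erythroid markers were called higher, and the other counts were the same. The endothelial marker *Kdr* was called lower. Lens markers had a summed level of 158 and 428 CPM in wildtype and of 8924 and 3643 CPM in mutant libraries. All 12 RGC markers were called lower, with summed levels between 3297 and 3760 CPM in wildtype and between 1130 and 1424 CPM in mutant libraries. Of 13 retinal progenitor markers 3 were called lower, *Ccnd1*, *Fgf15* and *Hes5*, and the median over the list was -0.12. With bulk RNA, fewer cells of a type and less RNA per cell cannot be told apart.

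Promoter sequence was read for these genes because Nrf1 binds DNA, and because RFX factors, the best known regulators of ciliary genes, bind the X-box motif. RefSeq windows on GRCm38.p6, from 250 bases before to 50 bases after a start site, were found for 39 of the 44 genes. *Dync2li1*, *Ift80*, *Ift81*, *Ift122* and *Tmem67* had no entry. The 3 motifs searched, on both strands, were CGCATGCG (the core of the Nrf1 palindrome), TGCGCA (an Nrf1 half-site) and GTTGCCA (an X-box half-site). The X-box letters stood in the windows of 9 of 39 members (23.1%), and in 4.61% of the 11602 tested genes that had a window. TGCGCA stood in 9 of 39 (23.1%), against 14.8% of tested genes. CGCATGCG stood in the window of *B9d2* alone (2.56%), against 3.87%. The members with TGCGCA were *B9d1*, *Bbs2*, *Bbs5*, *Bbs9*, *Cluap1*, *Ift22*, *Ift172*, *Tctn3* and *Wdr19*. The following stretches, 5′ to 3′ with the motif in capitals, show TGCGCA in *Bbs2*, *Bbs9* and *Ift22* and CGCATGCG in *B9d2*. The first group passed an adjusted edgeR p of at most 0.05 as lower, so the choice followed their values. The X-box is then shown in 4 subunits of the BBSome, IFT-B and the transition zone.
Bbs2, minus strand of chr8:94098583-94098610: cacgacgccacTGCGCAgtcgcaggagc
Bbs9, plus strand of chr9:22475693-22475720: cgcgtctgactTGCGCAgtagcctccgt
Ift22, plus strand of chr5:136908090-136908117: tcctgggctacTGCGCAgctgttcccgg
B9d2, plus strand of chr7:25680978-25681007: ggtaggaatgaCGCATGCGctacgcctacg
B9d2, plus strand of chr7:25681032-25681061: ccgagacgagaCGCATGCGccttttgaagc
Bbs1, minus strand of chr19:4906609-4906637: tggctgagctgGTTGCCAaggcgacgcct
Ift27, minus strand of chr15:78174073-78174101: ggttgatgatgGTTGCCAggagcctgttt
Ift88, minus strand of chr14:57424080-57424108: gacgcccagccGTTGCCAggcgcgactcc
Mks1, plus strand of chr11:87853180-87853208: ccagcgtctccGTTGCCAggggaacgagg
The centre of the motif lay 87 bases before the RefSeq start site in *Bbs2*, 46 bases before it in *Ift22* and 8 bases before it in *Bbs9*. In the GENCODE M21 annotation *Bbs2* and *B9d2* start farther upstream, and the stretches shown for them lie inside the annotated gene. The X-boxes shown lay between 21 bases before and 23 bases after the start. Windows of *B9d1* and *Tctn3* held both TGCGCA and GTTGCCA at separate places. In a full Nrf1 palindrome both Nrf1 motifs overlap, and no member's window held both. A match of letters is a description of the window and does not show that a factor binds there.

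All 44 genes had enough reads to be tested, from 404 to 20296 reads per gene and library. Calls needed both a 1.4-fold difference and an adjusted p no higher than 0.2, where p came from edgeR's quasi-likelihood fit and was adjusted by Benjamini-Hochberg over 15762 genes. By this rule *Bbs2* and *Ift43* fell and *Ift122* rose in mutant retinas, and the other 41 genes were not called. Thus 2 of 44 (4.55%) were called lower, where 8.04% of all tested genes were. The 1 gene called higher made up 2.27% of members, where 12.8% of all tested genes were called higher. The members' share called was below that of all genes in both directions.

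Shifts below the threshold lay mostly on 1 side. The log2 fold change was below 0 for 35 of the 44 genes, or 79.5%, whereas 49.9% of all tested genes had a value below 0. The median was -0.11 for members and 0.00 over all tested genes, and the quartiles of the members were -0.15 and -0.03. Both mutant libraries lay below both wildtype libraries for 22 members, or 50%, where 31.6% of all tested genes did so. Both lay above for 4 members (9.09%), where 30.9% of tested genes did so. The size of the shift depended on 1 library: without wildtype replicate 1, the members' median was -0.06. Wildtype replicate 1 lay above wildtype replicate 2 for 30 of the 44 genes, and for 7840 of the 15762 tested genes. Under the 3 other sets of scaling factors the median lay between -0.13 and -0.07.

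**Figure D1:**
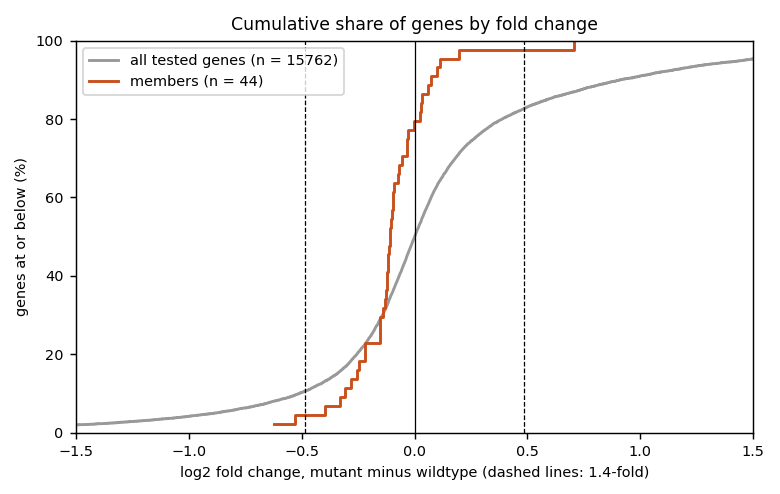
Cumulative share of genes (y axis, %) at or below each log2 fold change of mutant against wildtype (x axis), for the 44 members and all 15762 tested genes, with dashed lines at 1.4-fold. The members' curve is steep just left of 0, with a median of -0.11, and only 3 members lie beyond the dashed lines.

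A test that misses its threshold does not show that a gene stayed level, so the intervals were read as well. For 35 of the 44 genes the 95% interval of the fold change lay wholly inside 1.4-fold in either direction, and for these a change of that size lies outside the interval. The same held for 46.6% of all tested genes, a set that also includes genes with few reads. The 9 members whose interval reached past 1.4-fold were *Bbs2*, *Bbs9*, *Bbs10*, *Arl6*, *Ift22*, *Ift43*, *Ift122*, *Cluap1* and *B9d2*.

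**Figure D2:**
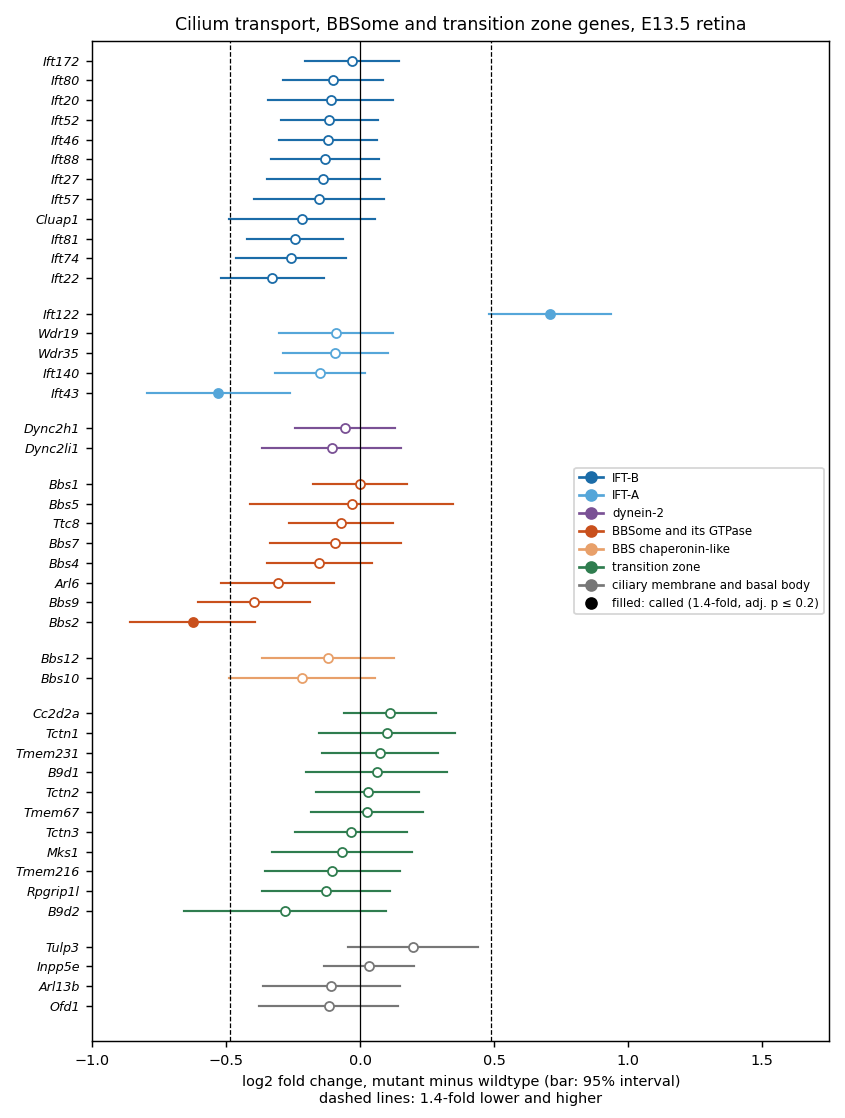
Log2 fold change of mutant against wildtype (x axis) for each of the 44 genes, grouped and coloured by role, with the 95% interval as a bar, filled points for called genes and dashed lines at 1.4-fold. *Bbs2* and *Ift43* on the left and *Ift122* on the right are the only filled points, and all 12 IFT-B points lie left of 0.

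Within IFT-B, the larger carrier complex for outward transport, none of the 12 genes was called by edgeR, DESeq2 or limma, and 3 (25%) had an unadjusted edgeR p under 0.05 and a lower value in the mutant, where 16.9% of all tested genes did. All 12 values lay below 0, as did 49.9% of all tested genes, with a median of -0.14. For 11 of the 12 genes both mutant libraries were lower than both wildtype libraries, where 31.6% of tested genes showed this. Summed over the group, the level was 583 and 547 CPM in wildtype and 504 and 506 CPM in mutant libraries. The lowest value was that of *Ift22*, a small GTPase-like subunit, with 38.8 and 38.7 CPM in wildtype and 29.9 and 31.8 CPM in mutant libraries. The groups did not overlap and the wildtype libraries were nearly equal, so that a log2 fold change of -0.33 (standard error 0.08) gave an adjusted p of 0.0236 from edgeR, below 1.4-fold. *Ift74* and *Ift81*, which pair to form a tubulin-binding module, had log2 fold changes of -0.26 and -0.24 (adjusted p = 0.0744 and 0.0572 from edgeR). *Ift74* stood at 112 and 97.4 CPM in wildtype and at 90.3 and 85.3 CPM in mutant libraries. *Ift81* stood at 58.4 and 53.6 CPM in wildtype and at 47.4 and 47.1 CPM in mutant libraries. These 2 were chosen after their values were seen. At the other end, *Ift172*, the large subunit that acts at the ciliary tip, had 76.0 and 71.2 CPM in wildtype and 70.6 and 73.5 CPM in mutant libraries, and its groups overlapped (log2 fold change -0.03).

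IFT-A, the carrier for the way back and for the entry of some membrane receptors, held the only pair of genes called in opposite directions. *Ift43*, a small peripheral subunit on chromosome 12 (GRCm38, 86082541 to 86162459, plus strand), had 29.0 and 24.1 CPM in wildtype and 17.9 and 19.0 CPM in mutant libraries. These values rest on 2543 and 1789 reads in wildtype and on 1483 and 1570 reads in mutant libraries. The gene fell to 69.3% of the wildtype mean, a log2 change of -0.53 (standard error 0.12, 95% interval -0.80 to -0.26, adjusted p = 0.0118 from edgeR). Wildtype replicate 1 was the highest library, and without it the log2 fold change was -0.39 and the gene was not called. *Ift122*, a subunit of the core on chromosome 6 (115853470 to 115926699, plus strand), had 77.8 and 75.9 CPM in wildtype and 113 and 138 CPM in mutant libraries, on 5626 to 11383 reads. It rose to 163% of the wildtype mean, a log2 change of 0.71 (standard error 0.10, 95% interval 0.48 to 0.93, adjusted p = 0.0013 from edgeR), and remained called without any 1 of the libraries (0.56 to 0.84). The mutant libraries differed more from each other than the wildtype libraries did, and *Ift122* was higher in mutant replicate 2. Of the marker sums that were higher in mutant libraries, those of pigment epithelium (460 and 489 CPM in mutant replicates 1 and 2) and of macrophages and microglia (255 and 309 CPM) had the same order, whereas those of lens, periocular mesenchyme, endothelium and erythroid cells were lower in mutant replicate 2. Whether cells of other tissues add to its level was not tested. The remaining IFT-A genes, *Wdr19*, *Wdr35* and *Ift140*, had log2 fold changes between -0.15 and -0.09, and none was called.

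**Figure D3:**
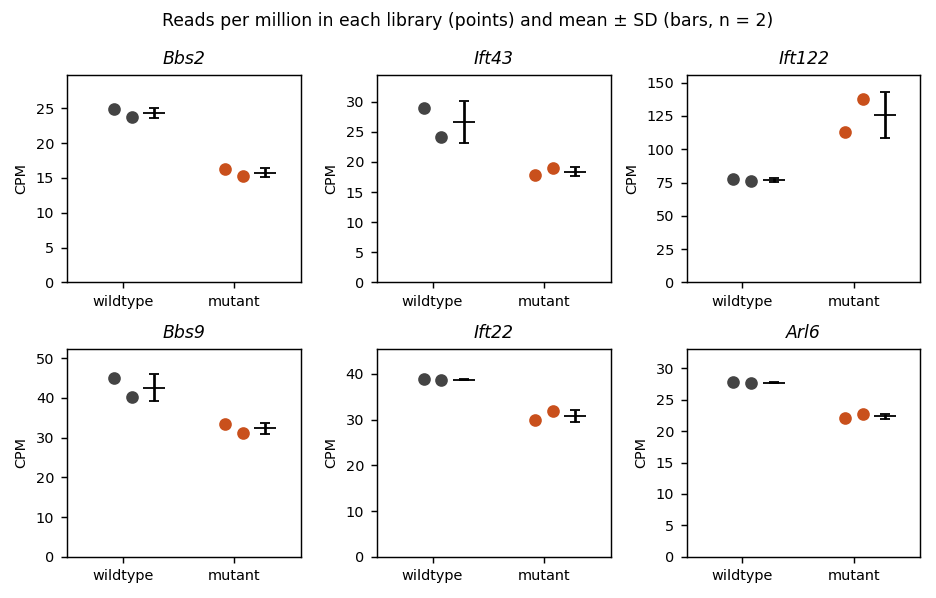
Level in CPM (y axis, from 0) of 6 members in each of the 2 wildtype and 2 mutant libraries (points), with the mean ± SD beside them. In *Bbs2*, *Ift43*, *Bbs9*, *Ift22* and *Arl6* both mutant points lie below both wildtype points, and in *Ift122* both lie above, the farthest apart at 113 and 138 CPM.

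The dynein-2 motor for the way back was represented by its heavy chain *Dync2h1* and light intermediate chain *Dync2li1*. *Dync2h1* had 232 and 221 CPM in wildtype and 228 and 207 CPM in mutant libraries, and *Dync2li1* had 20.0 and 18.7 CPM against 16.7 and 19.2 CPM. For both genes the groups overlapped, with log2 fold changes of -0.06 and -0.11. That of *Dync2li1* was -0.011 without mutant replicate 1 and -0.21 without mutant replicate 2.

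In the BBSome and its GTPase, all 8 genes had a value below 0 (49.9% of all tested genes did), with a median of -0.12. A single gene was called lower, where 8.04% of all tested genes were, and 5 had both mutant libraries below both wildtype libraries, where 31.6% did. The clearest was *Bbs2*, a core subunit on chromosome 8 (94067954 to 94098928, minus strand). It had 24.9 and 23.8 CPM in wildtype and 16.2 and 15.3 CPM in mutant libraries, on 1268 to 2178 reads. The drop to 64.8% of the wildtype mean was larger than the spread within either genotype, with a log2 ratio of -0.62 (standard error 0.10, 95% interval -0.86 to -0.39, adjusted p = 0.00271 from edgeR), and the call held without any 1 of the libraries (-0.67 to -0.59). *Bbs2* is also the called member whose window, shown above, carried the letters TGCGCA. On the authors' deposited log2 values its difference was -0.48 (adjusted p = 0.00251 from limma), just under 1.4-fold.

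*Bbs9*, a central subunit of the same core, had 45.0 and 40.1 CPM in wildtype and 33.3 and 31.3 CPM in mutant libraries. Its log2 fold change of -0.40 (standard error 0.09) had an adjusted p of 0.0149 from edgeR without reaching 1.4-fold. *Arl6*, the small GTPase that recruits the BBSome to membranes, had 27.8 and 27.7 CPM in wildtype and 22.1 and 22.7 CPM in mutant libraries (log2 fold change -0.31, adjusted p = 0.0435 from edgeR). Both were chosen for description after their values were seen, and exons of *Arl6* overlap those of another counted gene. With an adjusted p of at most 0.05 and no minimum fold, 5 members passed as lower, *Bbs2*, *Bbs9*, *Arl6*, *Ift22* and *Ift43*. That was 11.4% of members, against 10.9% of all tested genes, so this count is near the background. In the other direction *Ift122* alone passed (2.27%, against 11.9%). Of these 5 genes, *Bbs2*, *Bbs9* and *Ift22* had TGCGCA in their window. The median log2 fold change was -0.09 for the 9 members with these letters and -0.11 for the 30 without. Over all tested genes with a window it was -0.09 for the 1713 with these letters and 0.01 for the 9889 without, and 11.7% and 6.96% of them were called lower.

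*Bbs1*, which binds *Arl6*, lay at the upper end of the group, with 47.6 and 50.3 CPM in wildtype and 49.3 and 48.5 CPM in mutant libraries. Its groups overlapped, and its log2 fold change of 0.00 (95% interval -0.18 to 0.17) changed sign under other scalings. The chaperonin-like genes *Bbs10* and *Bbs12*, whose products help to assemble the BBSome, were both lower in both mutant libraries and not called. *Bbs10* had 16.9 and 14.7 CPM in wildtype and 13.9 and 13.3 CPM in mutant libraries (log2 fold change -0.22). *Bbs12* had 18.9 and 17.6 CPM against 17.3 and 16.3 CPM (log2 fold change -0.12), and its exons overlap those of *Cetn4*.

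The transition zone genes stood apart from the carriers in their median, though this difference was not tested. Wildtype replicate 1 lay above wildtype replicate 2 for 2 of the 11 transition zone genes. It did so for 9 of 12 IFT-B genes, 5 of 5 IFT-A genes and 7 of 8 genes of the BBSome and its GTPase. The part of this difference between wildtype libraries in the contrast was not tested. None of the 11 was called by edgeR, DESeq2 or limma, where edgeR called 8.04% of all tested genes lower and 12.8% higher. None had an unadjusted edgeR p under 0.05, where 16.9% of all tested genes had one as lower and 17.9% as higher. Values below 0 were found for 5 genes and above 0 for 6 genes (median 0.02), where 49.9% of all tested genes lay below 0. The summed level was 304 and 317 CPM in wildtype and 309 and 318 CPM in mutant libraries. The lowest was *B9d2*, a subunit of the B9 complex, with 8.64 and 10.96 CPM in wildtype and 7.39 and 8.73 CPM in mutant libraries. Its groups overlapped, its 95% interval, -0.66 to 0.10, was among the widest, and its log2 fold change of -0.28 was -0.097 without wildtype replicate 2 and -0.44 without wildtype replicate 1. The highest was *Cc2d2a*, a further protein of the gate, with 49.0 and 51.4 CPM in wildtype and 53.6 and 54.9 CPM in mutant libraries (log2 fold change 0.11, 95% interval -0.06 to 0.28). For the tectonic genes *Tctn1*, *Tctn2* and *Tctn3* and for *Mks1*, *Rpgrip1l*, *Tmem67*, *Tmem216*, *Tmem231* and *B9d1*, log2 fold changes ran from -0.13 to 0.10.

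The last 4 genes act at the ciliary membrane or the basal body. *Tulp3*, which with IFT-A brings receptors into the cilium, had the highest value, with 24.97 and 23.1 CPM in wildtype and 29.4 and 25.6 CPM in mutant libraries. The groups did not overlap, but the log2 fold change of 0.20 (standard error 0.11) was not called (adjusted p = 0.236 from edgeR). *Ofd1*, a protein of centrioles and their satellites, had the lowest, with 27.6 and 22.8 CPM in wildtype and 23.5 and 22.9 CPM in mutant libraries. Wildtype replicate 1 alone stood above the rest, and the value of -0.12 turned to 0.03 without it. *Inpp5e*, a lipid phosphatase, and *Arl13b*, the GTPase that places it in the cilium, had log2 fold changes of 0.03 and -0.11 and were not called.

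Levels between genes were compared per length, as wildtype CPM per kb of annotated exon. *Ift74* was the highest member at 39.5 ± 4.0 (SD, n = 2). It was followed by *Ift43* at 16.1 ± 2.11, *Ift52* at 14.6 ± 0.17 and *Ift20* at 14.1 ± 0.86, which did not differ beyond their spread. The lowest were *Bbs5* at 2.35 ± 0.18, *Rpgrip1l* at 2.42 ± 0.01 and *Tulp3* at 2.57 ± 0.14. *Bbs2*, at 7.35 ± 0.22, and *Ift122*, at 7.45 ± 0.14, were near each other on this scale. Exon lengths are the union over all annotated transcripts, so a gene with long minor transcripts has too low a value.

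**Figure D4:**
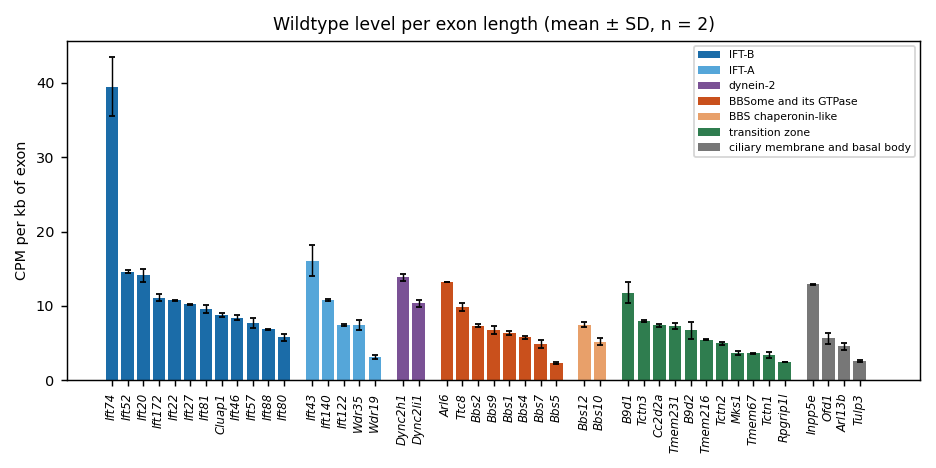
Wildtype level per length (y axis, CPM per kb of exon, from 0; bars are means and error bars SD, n = 2) of the 44 genes, coloured by role and ordered within it. *Ift74* stands above all others at 39.5, and *Bbs5* is the lowest at 2.35.

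The other genes of the organelle were described from lists that the rule did not use. Of 73 tested ones, 4 were called lower (5.48%, against 8.04% of all tested genes) and none higher (against 12.8%), and DESeq2 and limma gave the same counts. An unadjusted edgeR p under 0.05 was found for 20 of them (27.4%) in the lower direction, where 16.9% of all tested genes had one, and for 6 (8.22%) in the higher, where 17.9% had one. The list of other IFT, motor and BBS genes held 3 of the called genes, *Kif3a*, *Kif3c* and *Kifap3*, out of 21 (median -0.25). These were 14.3% of the list, where 8.04% of all tested genes were called lower. An unadjusted edgeR p under 0.05 was found for 8 of the 21 (38.1%, against 16.9%) as lower and for none as higher. *Kif3a*, a motor subunit of the kinesin-2 that draws IFT-B outward, had 146 and 144 CPM in wildtype and 102 and 88.5 CPM in mutant libraries (log2 fold change -0.61). *Kifap3*, the adaptor subunit of the same motor, had 111 and 113 CPM in wildtype and 71.7 and 61.2 CPM in mutant libraries (log2 fold change -0.75). *Kif3c*, a neuronal partner of *Kif3a*, had 121 and 133 CPM against 80.6 and 70.3 CPM (log2 fold change -0.75). Adjusted p-values from edgeR were 0.00148, 0.000613 and 0.00069 in this order, and mutant replicate 2 was the lowest library each time. In contrast, *Kif3b*, the usual second motor subunit, had 59.0 and 57.3 CPM in wildtype and 51.9 and 51.7 CPM in mutant libraries and was not called (log2 fold change -0.17). Kinesin-2 also carries cargo along axons, and RGC markers were lower in the same libraries. Their part in these values was not tested.

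Of 18 further transition zone and nephronophthisis genes and 19 basal body genes, none was called by edgeR, DESeq2 or limma. By edgeR, 8.04% of all tested genes were called lower and 12.8% higher. An unadjusted edgeR p under 0.05 was found for 1 lower (5.56%) and 2 higher (11.1%) genes of the first list. In the second list it was found for 5 lower genes (26.3%) and for none in the higher direction. Over all tested genes the shares were 16.9% lower and 17.9% higher. The medians of the 2 lists were -0.12 and -0.03. Of 15 genes for cargo of the ciliary membrane, 6 (40%) had an unadjusted edgeR p under 0.05 in the lower direction and 4 (26.7%) in the higher. The 1 gene called (6.67%) was *Tub*, a neuronal relative of *Tulp3* that the paper lists as expressed in RGCs. It had 147.5 and 133 CPM in wildtype and 68.9 and 53.3 CPM in mutant libraries (log2 fold change -1.20, adjusted p = 0.000268 from edgeR). Among 7 tested genes for RFX factors and *Foxj1*, *Rfx5* was the only one called, with 15.9 and 15.2 CPM in wildtype and 26.8 and 28.02 CPM in mutant libraries (log2 fold change 0.82). *Rfx5* is best known as a regulator of antigen presentation genes. All 11 macrophage and microglia markers were called higher in the same libraries, from a sum of at most 83.9 CPM to at least 255 CPM, and their part in the value of *Rfx5* was not tested. *Rfx2* and *Rfx3*, the factors most tied to ciliary genes, had log2 fold changes of 0.02 and -0.06. *Rfx1* had 34.3 and 35.9 CPM in wildtype and 43.5 and 44.6 CPM in mutant libraries. Its log2 fold change of 0.33 had an adjusted p of 0.0194 from edgeR without reaching 1.4-fold. *Rfx1*, *Rfx2* and *Rfx3* were chosen after their values were seen. Of 15 tested markers of motile cilia, 1 was called, *Tekt1* (lower, -0.70), and none by limma on the deposited log2 values (-0.48). *Foxj1*, the main regulator of motile cilia, stood between 3.28 and 4.73 CPM.

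Of 29 tested Hedgehog genes, 7 were called lower (24.1%, against 8.04% of all tested genes) and 5 higher (17.2%, against 12.8%), beside 2 and 1 of the 44 members. The difference between the lists was not tested. In the list of ligands and receptors, *Shh* had 165 and 142 reads in wildtype and 47 and 3 reads in mutant libraries (log2 fold change -2.65). The value was -5.65 without mutant replicate 1 and -1.75 without mutant replicate 2. The co-receptor genes *Cdon*, *Boc* and *Gas1* rose (log2 fold changes 0.67, 0.74 and 1.21). *Dhh*, a second ligand, was also called higher, with 0 and 4 reads in wildtype and 51 and 39 reads in mutant libraries, so that its fitted value of 4.34 is uncertain. Of 10 target genes, 6 were called lower, led by *Gli1* at -3.21 (-4.00 without mutant replicate 1 and -2.71 without mutant replicate 2), and the 3 called higher were the same co-receptor genes. The list does not record whether the pathway raises or lowers each gene, so calls in opposite directions do not show a mixed response. The 14 genes that act between receptor and nucleus at the cilium had a median of 0.01, against -0.11 for members. Of these 14, 4 (28.6%) had an unadjusted edgeR p under 0.05 in the higher direction and 2 (14.3%) in the lower. Over all tested genes, 17.9% and 16.9% did. *Gli1*, itself a target, was called lower and *Kif7*, a kinesin of the ciliary tip, was called higher (0.54), each 7.14% of the list. *Sufu*, *Gli2* and *Gli3* lay between 0.27 and 0.31 and were not called. They did pass an adjusted edgeR p of at most 0.05 without a minimum fold. *Smo*, from the list of ligands and receptors, was at 0.23 and was not called. *Kif7* had 27.0 and 28.6 CPM in wildtype and 36.5 and 44.0 CPM in mutant libraries, and was not called without mutant replicate 2 (0.39). *Evc2*, chosen after its value was seen, is part of a complex at the base of the cilium that passes on the signal of Smo. It had 44.0 and 43.7 CPM in wildtype and 33.0 and 32.2 CPM in mutant libraries (log2 fold change -0.43, adjusted p = 0.00553 from edgeR, below 1.4-fold). The largest change among members, that of *Ift122* at 0.71, was smaller in size than those of *Shh*, *Gli1* and *Gas1* and close to those of *Ptch1* (-0.69) and *Hhip* (-0.71).

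**Figure D5:**
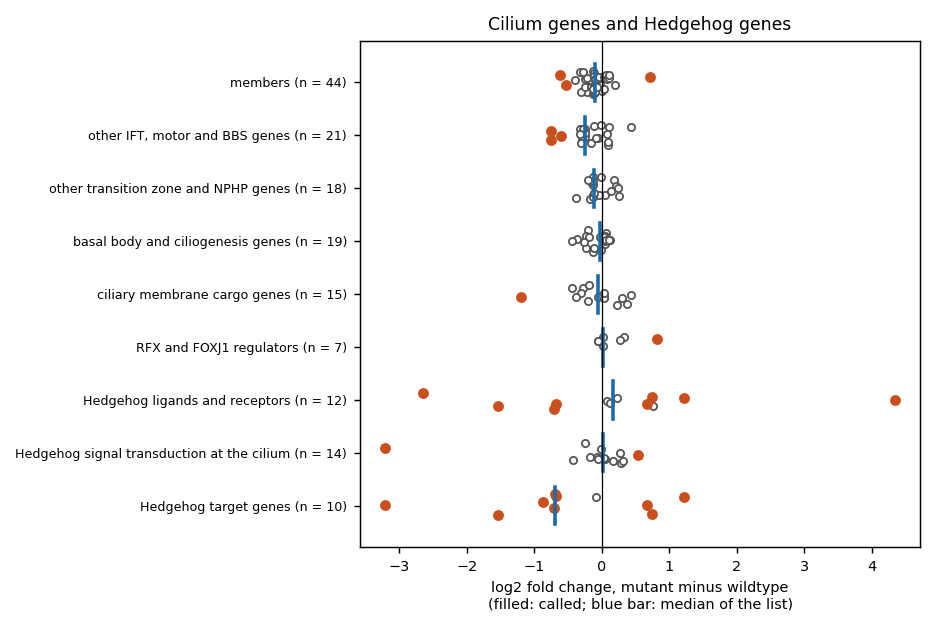
Log2 fold change of mutant against wildtype (x axis) of every tested gene in 9 lists (rows), with filled points for called genes and a blue bar at the median of each list; *Gli1*, *Ptch1* and other targets stand in more than 1 row. Points of the 44 members lie between -0.62 and 0.71, whereas Hedgehog target genes reach -3.21 and ligand and receptor genes run from -2.65 to 4.34.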

How the data were processed

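RNA of E13.5 retinas was sequenced as paired-end reads. The authors mapped them to mm10 with Tophat 2.7.2 and deposited whole-number counts per gene from HTSeq, without normalization. The annotation release and the strand setting are not given in the sources used here. Summary rows (74.0% to 75.0% of entries) stayed out of library sizes and tests. The authors also deposited normalized log2 values, whose lowest value was 8.13 for genes without reads, so that differences of low genes are compressed. These served as an alternative. No column was left unmapped, and the authors' Cuffdiff step was not repeated.

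Counts were filtered with filterByExpr (minimum count 10), scaled by TMM and tested in edgeR 4.0.16 (quasi-likelihood, R 4.3.3) with all 4 libraries and no covariate. The study's thresholds (1.4-fold, adjusted p of at most 0.2) were used. Scripts were tested on simulated data. Intervals are 95% intervals of this fit. With 2 against 2 libraries, an exact permutation test of a single gene cannot go below p = 0.333 (two-sided). Reads are not independent molecules, so errors do not cover PCR copies. Positions and exon lengths come from GENCODE M21 on GRCm38, and promoter windows from RefSeq on GRCm38.p6. For 37 of the 39 genes with a window, the end of a window matched an annotated transcript of the gene. For 8 members exons overlap another counted gene, and such reads can be lost.

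The genes, lists and rule for named genes were chosen with earlier results of these data known. The rule names called members, the highest and lowest of each role, called genes of other lists (the 3 largest per direction where over 6), 8 Hedgehog genes and *Nrf1*. Alternatives were DESeq2 1.42.0, limma 3.58.1, other scalings, filters and thresholds, the replicate number as a block, and each library left out in turn. The result for 1 gene of these lists is not reported by name here.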

Additional observations from a re-analysis of the deposited data

How the results depend on the processing

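The 16 alternatives gave 1 member called higher each time, *Ift122*. Members called lower numbered 0 with edgeR's test against 1.4-fold and 0 with limma on the deposited log2 values, 5 with an adjusted p of at most 0.05 and no minimum fold, and between 1 and 2 as libraries were dropped in turn. Their median, -0.11, then ran from -0.144 to -0.0555. Over all tested genes, 743 were called lower and 1188 higher with the test against 1.4-fold, and 723 and 945 with limma (the cause was not tested). Without a minimum fold, Hedgehog genes called higher were 8, and other cilium genes called lower and higher were 11 and 2. Limma called 3 Hedgehog genes higher. Other cilium genes called higher ran from 0 to 1 as libraries were dropped, the 1 being *Adcy3* without mutant replicate 1.

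Without 1 library each, log2 fold changes ran from -0.0391 to 0.0429 for *Bbs1*, from -0.073 to 0.0221 for *Ift172*, from -0.245 to 0.0299 for *Ofd1* and from -0.127 to 0.00851 for *Dync2h1*. *Bbs1* was 0.00283 with RLE factors, 0.0375 with upper-quartile factors, 0.00388 with at least 10 counts in every library, 0.00238 with DESeq2 and 0.00235 with limma. With upper-quartile factors *Ift172* was 0.00959 and *Nrf1* was 0.00596. None of these 5 genes was called under any of the alternatives. *Hhip*, *Kif7*, *Dhh* and *Tekt1* lost their calls with limma, and *Hhip*, *Kif7* and *Kif3a* with the test against 1.4-fold.

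The replicate number was fitted as a replicate block, which called 2 members lower and 1 higher and 1256 and 1970 of all genes. Libraries of the same number did not deviate together (correlation -0.0025), and no label ties a number to a litter or day. Leaving the markers of other tissues out of the scaling left the members' median at -0.11 and the 3 calls in place. The lowest count of a member was 404 reads, and having 2 libraries per genotype limits the precision.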
